A study of Mus musculus with 28 samples.

Results

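Slc1a3+ cells of back-skin interfollicular epidermis (IFE), the epidermis between the hair follicles, were compared with total back-skin IFE of the same mouse line. The libraries were taken by their labels: 3 of Slc1a3+ cells and 3 of total IFE, both numbered 1, 2 and 4, or 6 of the 28 libraries of the series, which sets 4 lines of labelled basal cells beside their totals in back and tail skin.

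Both groups came from Slc1a3CreER x RosatdTomato mice, recorded as wild type, which had received tamoxifen at 100 ug/ml for 5 days from postnatal day 30 to 34. Skin was collected 2 weeks later, on postnatal day 49, in telogen, the resting phase of the hair cycle. The Slc1a3+ samples hold the cells positive for the line's label, and the total IFE samples hold IFE of the same genotype, treatment and age. The labels do not say whether labelled cells were removed from the total, nor whether the libraries came from separate animals. A p-value here rests on spread shared over all 28 libraries of the series, which may be technical. CreER is a Cre recombinase that acts in the presence of tamoxifen. In this line it is named for Slc1a3, so a cell is marked where that driver was active at the time of treatment, and its descendants stay marked.

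The basal layer of the IFE divides and feeds the spinous and granular layers above it, which harden into the skin barrier. Slc1a3 encodes a transporter that takes up glutamate and aspartate, and in the epidermis it is known as a mark of some actively dividing basal cells. Hair follicles and sebaceous glands are continuous with the IFE, and their stem cells carry factors such as Sox9 and Lrig1. In bulk RNA, fewer cells of a type and less RNA per cell cannot be told apart.

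The 3 Slc1a3+ libraries held 11669653 to 20215281 counts and the 3 total libraries 7738262 to 28281208. Total replicate 4 stood apart from the other 5: it had the lowest sum, 14436 genes with a count, and 0.208% of its counts on mitochondrial genes. The other 5 libraries, thinned to its depth, held 17943 to 18765 genes, and their mitochondrial share was 1.22% to 1.6%. It correlated with its own group at r = 0.855 and 0.866 across genes, whereas the other pairs of libraries within a group reached 0.967 to 0.982. Levels are in CPM, a gene's counts relative to a library's total after scaling between libraries (edgeR's TMM). Changes are log2 fold changes of Slc1a3+ over total, with an approximate standard error (SE). This SE is the size of the change divided by the square root of the F value of the test named below. The changes come from a model that pairs libraries by replicate number and fits all 28 libraries together. Libraries of other lines and of tail skin thus also set the spread. A gene passed where edgeR's quasi-likelihood test gave a Benjamini-Hochberg adjusted p under 0.05 over the 17493 genes tested.

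The genes that mark the line were read first. Gt(ROSA)26Sor (ENSMUSG00000086429, GRCm38 chr6:113067428-113077333, minus strand, an antisense transcript), which lies at the locus that carries the reporter, had 30.8, 24.8 and 33.6 CPM in Slc1a3+ replicates 1, 2 and 4, against 14.9, 10.6 and 4.98 CPM in total replicates 1, 2 and 4. Every Slc1a3+ library lay above every total library. The log2 change was 1.57 (SE 0.28, adjusted p = 0.0174), and without total replicate 4 it was 1.14 (adjusted p = 0.0258). The libraries do not keep strand, and exons of Thumpd3 overlap this transcript on the other strand; Thumpd3 itself measured -0.18 (SE 0.12, adjusted p = 0.611).

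Slc1a3 (ENSMUSG00000005360, chr15:8634124-8710764, minus strand) had 22.2, 26 and 28.5 CPM in Slc1a3+ replicates 1, 2 and 4, against 15.2, 17.8 and 21.2 CPM in the totals. It was higher in the labelled library of each of the 3 pairs, and the groups did not overlap, but the log2 difference of 0.51 (SE 0.15) did not pass (adjusted p = 0.292). The other 4 transporters of the Slc1 family that were tested did not pass either. Krt14, a keratin of the basal layer, averaged 11210 ± 1026 CPM in Slc1a3+ cells and 15080 ± 8646 CPM in total IFE (SD, n = 3 each), and its log2 difference of -0.29 turned to 0.07 without total replicate 4. The 12 keratinocyte markers together came to 75590 to 80240 CPM in the Slc1a3+ libraries and 73620 to 109400 CPM in the totals, and 0 of them passed, with a median log2 difference of -0.09. Keratinocyte genes, as the labels name them, were thus high in both groups.

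In all, 62 genes passed, which is 0.354% of those tested. Of these, 51 (0.292%) were lower in Slc1a3+ cells and 11 (0.0629%) were higher, while the median log2 difference of all genes was 0.05 and 43.2% of them were negative. The libraries were fully separated for 39 of the 51 lower genes and 8 of the 11 higher genes. Over all genes tested, Slc1a3+ lay wholly below the total for 3.35% and wholly above it for 4.56%. Before adjustment, 1714 genes had a p under 0.05.

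**Figure D1:**
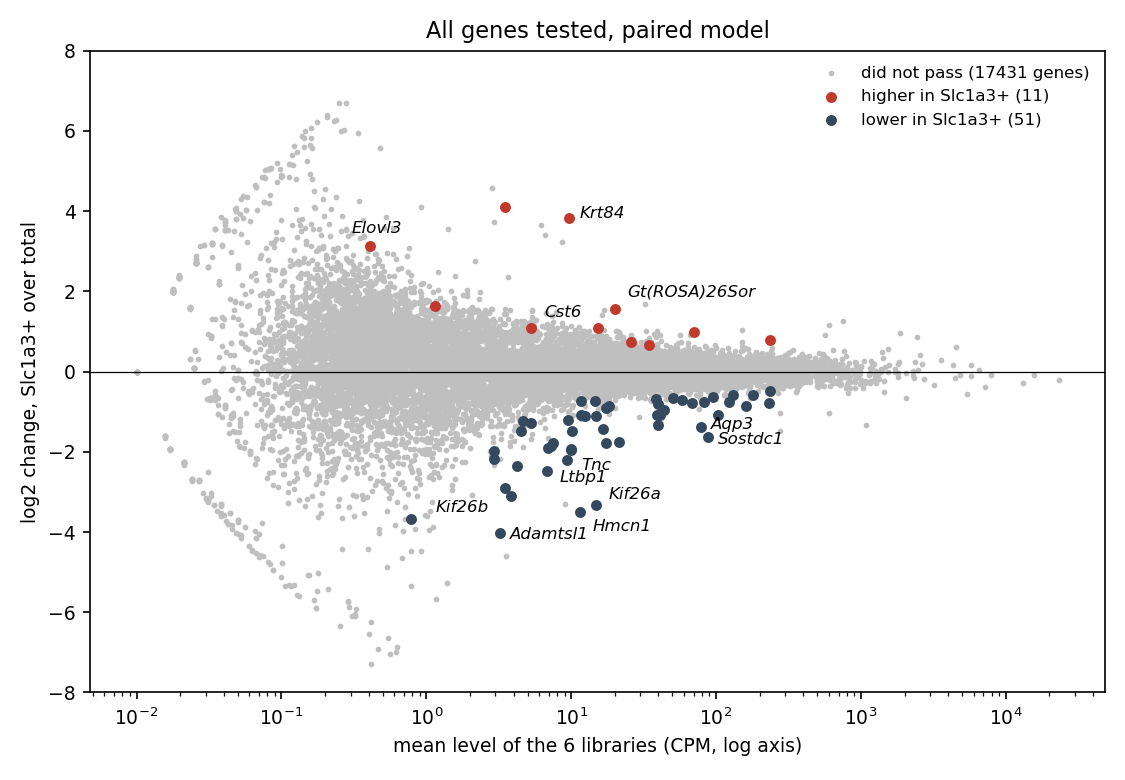
Each point is 1 of the 17493 genes tested, with the mean level of the 6 libraries in CPM on a log axis and the log2 change of Slc1a3+ over total on the vertical axis. The 51 genes that passed lower lie below 0, and the 11 that passed higher lie above 0.

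Pairing mattered to these counts. Without it 19 genes passed (0.109%), 3 higher (0.0171%) and 16 lower (0.0915%), and 17 of the 19 were among the 62. Without total replicate 4, which takes pair 4 out of the comparison, 88 passed, 17 higher and 71 lower, 55 of them among the 62. Leaving out Slc1a3+ or total replicate 2 gave 153 and 152 genes, 41 and 40 of them among the 62. With pairing, leaving out either library of a pair takes that pair out of the comparison, so both give nearly the same fit. The 6 fits with 1 library left out, here and below, thus amount to 1 check per pair. With only the 6 libraries in the fit, 0 genes passed in edgeR, where 232 stood below 0.05 before adjustment. Of the 62 genes, 32 kept their call whichever single library of the 6 was dropped, and 15 of those also passed without pairing: Kif26a, Tnc, Aqp3, Hmcn1, Fgfr1, Sostdc1, Shroom3, Kif26b, Ltbp1, Igsf9, Cacna2d2, Scube2, Sox7 and Ehf, all lower, and Gt(ROSA)26Sor, higher. Fgfr1, Igsf9, Sox7 and Ehf fall outside the naming rule and were named after their values were seen.

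The gene lists read here and below were chosen with earlier results of these data known. Their counts of passed members are thus description only. On the extracellular matrix list, 5 of 37 members tested passed, all lower in Slc1a3+ cells, where 0.292% of all genes tested passed lower. Of the 37, 27 were negative and 10 positive. The list median was -0.37 beside 0.05 for all genes, or -0.22 without total replicate 4. Hmcn1 (ENSMUSG00000066842, chr1:150562524-150993435, minus strand) encodes hemicentin 1, a large matrix protein. It had 2.68, 1.45 and 1.54 CPM in Slc1a3+ replicates 1, 2 and 4, against 25.5, 23.3 and 14.4 CPM in the totals. The groups were far apart, and the log2 change was -3.50 (SE 0.32, adjusted p = 2.24e-05).

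Tnc (ENSMUSG00000028364, chr4:63959785-64047015, minus strand), which encodes the matrix glycoprotein tenascin C, had 2.74, 3.64 and 5.19 CPM in Slc1a3+ replicates 1, 2 and 4, against 9.67, 10.3 and 28.5 CPM in the totals, a log2 change of -1.92 (SE 0.16, adjusted p = 1.63e-05). Total replicate 4 was the highest, and without it the change was -1.65. Ltbp1, a binding protein that stores latent TGF-beta in the matrix, had 3.14, 1.31 and 1.95 CPM in Slc1a3+ cells, against 12.9, 13.6 and 7.92 CPM in the totals, and fell by 2.48 (SE 0.29, adjusted p = 0.000267). Again no Slc1a3+ library reached any total library. Scube2, a secreted protein that helps release Hedgehog ligands, fell by 1.79 (SE 0.27, adjusted p = 0.0048) and is also the 1 gene of 14 that passed on the Hedgehog list. The fifth matrix gene, Col8a1, a short-chain collagen named after its values were seen, changed by -1.48 with overlapping libraries. Its call was lost with any of 4 of the 6 libraries left out. Adamtsl1, a secreted protein of the ADAMTS-like family, stood at 0.228, 0.0932 and 1.14 CPM in Slc1a3+ cells and at 4.15, 6.67 and 7.02 CPM in the totals. Its change of -4.03 (SE 0.77, adjusted p = 0.0292) did not pass without total replicate 1 (-3.97, adjusted p = 0.0909), without total replicate 2 (-3.28, adjusted p = 0.0786) or without pairing (adjusted p = 0.0783).

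On the BMP, activin and TGF-beta list 3 of 41 members passed, all lower: Sostdc1, Fst and Ltbp1. The list median was -0.01, with 20 members positive. Sostdc1 (ENSMUSG00000036169, chr12:36314139-36318452, plus strand) encodes a secreted protein that restrains BMP and Wnt ligands. It had 78.8, 27.8 and 30.3 CPM in Slc1a3+ replicates 1, 2 and 4, against 161, 134 and 95.6 CPM in the totals. Slc1a3+ replicate 1 stood above the other 2 but below every total library, and the log2 change was -1.64 (SE 0.16, adjusted p = 3.42e-05). Fst (ENSMUSG00000021765, chr13:114452290-114458951, minus strand) encodes follistatin, which binds activin. It had 19.9, 6.48 and 5.19 CPM in Slc1a3+ cells, against 47.2, 29.8 and 19.1 CPM in the totals. Slc1a3+ replicate 1 was just above total replicate 4, so the groups overlapped, but each pair fell, with a log2 change of -1.75 (SE 0.18, adjusted p = 7.83e-05). Without pairing Fst did not pass (adjusted p = 0.172). None of the BMP ligands, receptors or Smads on the list passed.

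Of the 43 Wnt genes tested 3 passed, all lower, and the list median was -0.01. Of these, Fzd7 is a Wnt receptor, and Kif26a and Kif26b are atypical kinesins, listed for the tie of Kif26b to the Wnt5a-Ror pathway. Kif26a (ENSMUSG00000021294, chr12:112146208-112181747, plus strand) had 0.799, 2.47 and 3.49 CPM in Slc1a3+ replicates 1, 2 and 4, against 7.07, 15.7 and 59.9 CPM in the totals. Replicate 4 was the highest of its group on both sides, and the log2 change was -3.33 (SE 0.27, adjusted p = 1.63e-05), or -2.81 without total replicate 4. Kif26b had 0.799, 1.12 and 0.486 CPM in Slc1a3+ cells, against 6.21, 9.32 and 5.11 CPM in the totals, a log2 change of -3.09 (SE 0.35, adjusted p = 0.000227). Fzd7 fell by 0.80 (SE 0.14, adjusted p = 0.0136), with overlapping libraries. It did not pass without Slc1a3+ replicate 2 (-0.59, adjusted p = 0.0671), without total replicate 2 (-0.59, adjusted p = 0.0673) or without pairing (adjusted p = 0.837). None of the Wnt ligands and none of the targets on the list, Axin2 and Lef1 among them, passed.

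**Figure D2:**
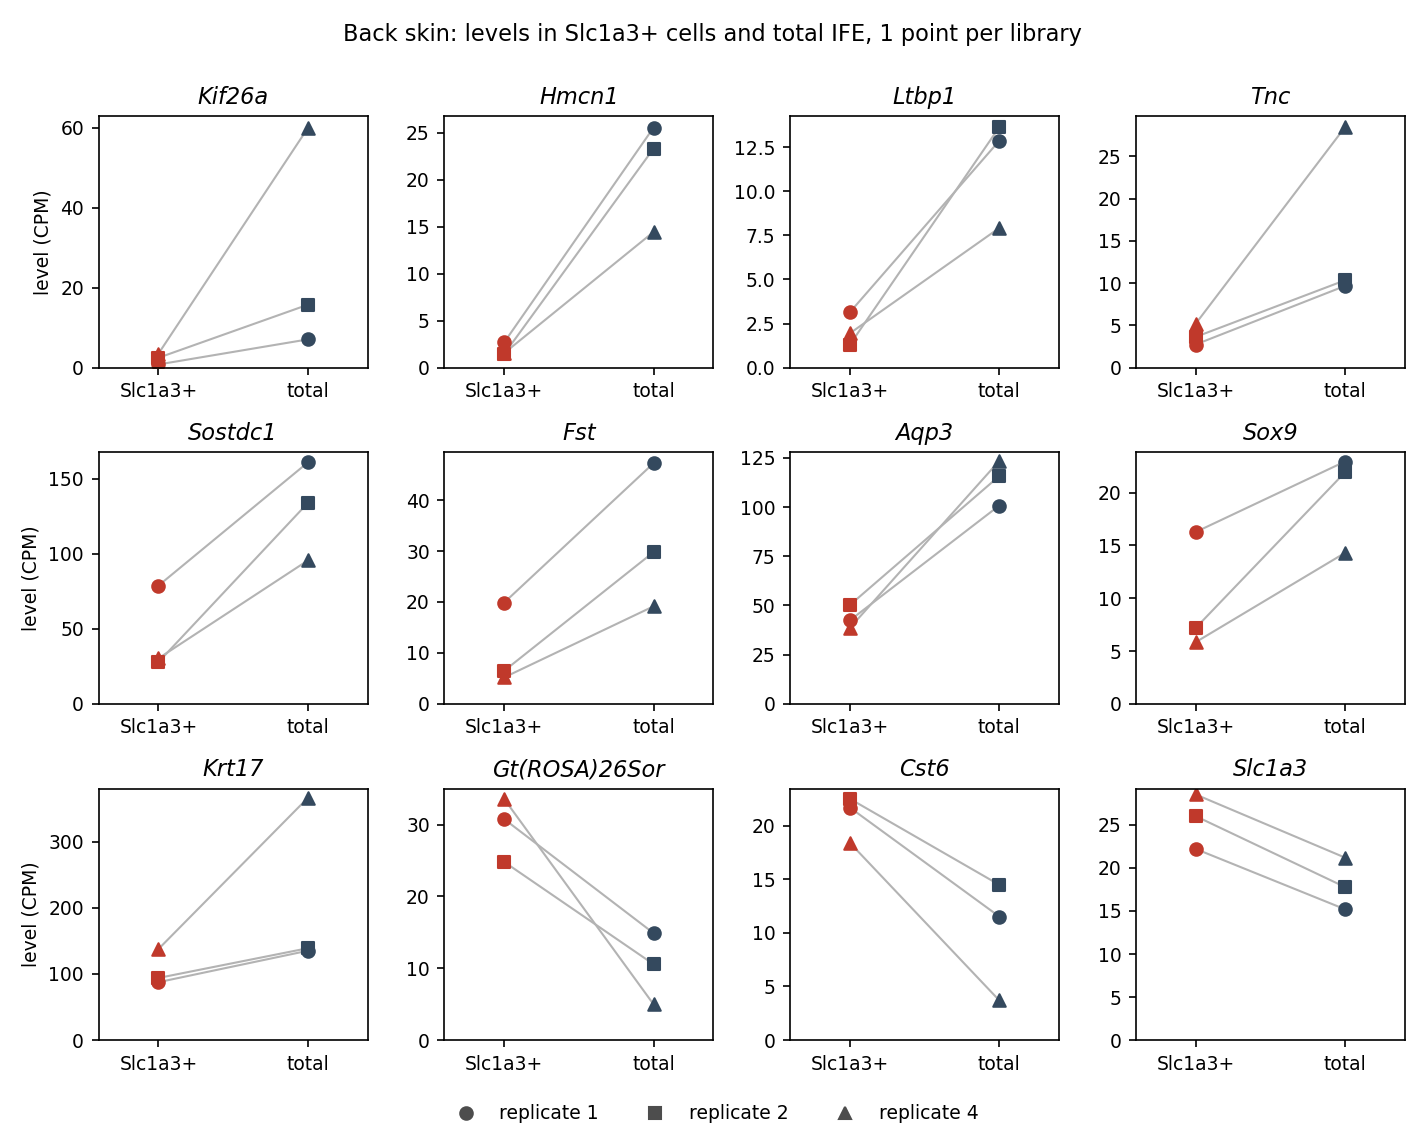
Levels of 12 genes in CPM, 1 point per library, with the Slc1a3+ libraries left and the total libraries right, and a line between libraries of the same replicate number. Lines fall toward Slc1a3+ in every pair for the first 9 genes, and rise toward Slc1a3+ for Gt(ROSA)26Sor, Cst6 and Slc1a3, of which Slc1a3 did not pass.

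Aqp3 and Pdlim4 were also among the genes with the lowest p. Aqp3 (ENSMUSG00000028435, chr4:41092722-41098183, minus strand), a channel for water and glycerol in basal keratinocytes, had 42.4, 50.2 and 38.6 CPM in Slc1a3+ replicates 1, 2 and 4, against 101, 116 and 124 CPM in the totals. The values within each group were close and the groups far apart, with a log2 change of -1.37 (SE 0.12, adjusted p = 1.63e-05). Pdlim4 (ENSMUSG00000020388, chr11:54054928-54069014, minus strand), an actin-associated PDZ and LIM protein, had 5.2, 6.81 and 3.89 CPM in Slc1a3+ cells, against 12.5, 17.6 and 14.8 CPM in the totals. It fell by 1.48 (SE 0.13, adjusted p = 1.63e-05), but did not pass without pairing (adjusted p = 0.23).

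Shroom3, which drives apical constriction of epithelial cells, averaged 2.90 ± 0.766 CPM in Slc1a3+ cells and 11.0 ± 3.50 CPM in total IFE (SD, n = 3 each), a log2 change of -1.91 (SE 0.22, adjusted p = 0.000227). Cacna2d2, an auxiliary subunit of calcium channels, averaged 3.35 ± 1.12 CPM in Slc1a3+ cells and 15.3 ± 5.52 CPM in total IFE. It fell by 2.21 (SE 0.32, adjusted p = 0.00468). Arhgef17, a guanine nucleotide exchange factor, fell by 1.77, the transporter Slco2b1 by 1.95 and the dynamin Dnm3 by 2.35. For each of these 3 genes the Slc1a3+ libraries lay below the totals. Slco2b1 did not pass without pairing (adjusted p = 0.587). Arhgef17 did not pass without total replicate 1 (adjusted p = 0.0534). Dnm3 did not pass without Slc1a3+ replicate 1 (adjusted p = 0.0681), Slc1a3+ replicate 2 (adjusted p = 0.0611), total replicate 1 (adjusted p = 0.0759), total replicate 2 (adjusted p = 0.0629) or pairing (adjusted p = 0.0901).

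The growth factor receptor Fgfr1, named after its values were seen, had 24.4, 18.5 and 25.2 CPM in Slc1a3+ replicates 1, 2 and 4, against 61.5, 50.5 and 57.3 CPM in the totals. Its groups were well apart, and it fell by 1.33 (SE 0.12, adjusted p = 2.24e-05). Ntrk2, a receptor for neurotrophins named in the same way, had 53.1, 92.7 and 54.2 CPM in Slc1a3+ cells, against 157, 137 and 121 CPM in the totals, a log2 change of -1.09 (SE 0.13, adjusted p = 0.0005).

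The promoter sequences of 3 of the genes with the lowest p, which moved in every pair, are shown as examples. They are the 250 bases before the RefSeq start on GRCm38.p6, read along the gene's strand. Capitals mark the matches to 4 motifs searched on both strands from 250 bases before to 50 after the start: AP-1 (TGACTCA), TCF/LEF (CTTTGAA and CTTTGAT), an E-box (CAGGTG) and a SMAD element (CAGACA). RefSeq promoters were found for 5 of the 6 genes looked up; the sixth was Sostdc1.
Kif26a, chr12:112145958-112146207, plus strand: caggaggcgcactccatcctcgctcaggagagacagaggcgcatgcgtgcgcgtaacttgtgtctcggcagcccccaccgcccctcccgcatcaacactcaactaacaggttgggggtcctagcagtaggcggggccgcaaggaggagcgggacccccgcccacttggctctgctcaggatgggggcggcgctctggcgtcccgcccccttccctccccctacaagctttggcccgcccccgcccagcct
Aqp3, chr4:41098184-41098433, minus strand: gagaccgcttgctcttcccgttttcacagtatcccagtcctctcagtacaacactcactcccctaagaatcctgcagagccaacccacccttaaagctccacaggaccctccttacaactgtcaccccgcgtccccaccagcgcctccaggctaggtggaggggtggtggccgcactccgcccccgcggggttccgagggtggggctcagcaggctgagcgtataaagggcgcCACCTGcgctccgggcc
Pdlim4, chr11:54069018-54069267, minus strand: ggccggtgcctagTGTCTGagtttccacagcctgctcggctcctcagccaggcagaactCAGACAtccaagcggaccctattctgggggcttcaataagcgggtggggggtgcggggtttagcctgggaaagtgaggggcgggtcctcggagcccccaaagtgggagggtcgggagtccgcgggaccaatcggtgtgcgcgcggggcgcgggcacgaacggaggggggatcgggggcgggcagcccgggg
The Aqp3 promoter holds 1 E-box and the Pdlim4 promoter 2 SMAD elements, whereas none of the 4 motifs is in the Kif26a window. Tnc and Hmcn1, whose sequences are not shown, also moved in every pair. The Tnc window holds a SMAD element at bases 9 to 14 after the start, and the Hmcn1 window none of the 4 motifs. Of 27025 promoters of this length, 20.0% hold this E-box, 21% the SMAD element, 8.77% the TCF/LEF motif and 5.17% the AP-1 motif, so the matches are a description of these sequences and no more.

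On the hair follicle bulge and germ list 3 of 22 passed, all lower (Tnc, Sostdc1 and Sox9). Of the 22, 14 were negative and 8 positive, with a median of -0.16, or -0.26 without total replicate 4. Sox9, which stem cells of the bulge need to persist, had 16.3, 7.18 and 5.84 CPM in Slc1a3+ replicates 1, 2 and 4, against 22.9, 21.9 and 14.3 CPM in the totals. Slc1a3+ replicate 1 overlapped the totals, and the log2 change of -1.11 (SE 0.18, adjusted p = 0.00961) was lost without Slc1a3+ replicate 2 (-0.84, adjusted p = 0.0611), total replicate 2 (-0.84, adjusted p = 0.0615) or pairing (adjusted p = 0.668). Runx1, a transcription factor that acts in follicle stem cells, fell by 1.85 (SE 0.31, adjusted p = 0.012), and its libraries did not overlap. It lost its call in the same way, without Slc1a3+ replicate 2 (adjusted p = 0.0578), total replicate 2 (adjusted p = 0.0611) or pairing (adjusted p = 0.517). Runx1 is not on the list. Postn and Lhx2, bulge genes that did not pass, fall outside the naming rule and were picked from the negative members of the list. The changes of the list ran from -1.92 to 2.56, so the largest was positive, and 0 of its 8 positive members passed. Postn, a matrix protein, had 71.2, 169 and 362 CPM in Slc1a3+ cells and 342, 246 and 458 CPM in the totals. Lhx2, a transcription factor, measured -1.19 (adjusted p = 0.36).

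The upper follicle and sebaceous list went the other way at its median, 0.40, or 0.16 without total replicate 4, with 1 gene higher and 2 lower among 22. Krt17, a keratin of the follicle and of stressed epidermis, had 87.5, 93.9 and 138 CPM in Slc1a3+ replicates 1, 2 and 4, against 135, 139 and 366 CPM in the totals. The groups overlapped by 1 library, and the log2 change was -0.87 (SE 0.14, adjusted p = 0.00867), or -0.60 without total replicate 4. Lrig1, a growth restraint and stem cell marker of the upper follicle, averaged 196 ± 51.3 CPM in Slc1a3+ cells and 275 ± 57.5 CPM in total IFE (SD, n = 3 each). Its change of -0.50 (SE 0.10, adjusted p = 0.0292) was lost without Slc1a3+ replicate 2 (adjusted p = 0.0709) or total replicate 2 (adjusted p = 0.0713). Without pairing Krt17 (adjusted p = 0.486) and Lrig1 (adjusted p = 0.87) did not pass. Exons of Slc25a26 overlap Lrig1 on the other strand, with fewer counts, and Slc25a26 measured 0.13 (adjusted p = 0.829).

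Cst6 was the upper follicle gene that rose. It encodes cystatin M/E, a protease inhibitor of cornifying skin, and had 21.7, 22.5 and 18.4 CPM in Slc1a3+ replicates 1, 2 and 4, against 11.5, 14.5 and 3.70 CPM in the totals. Every Slc1a3+ library lay above every total. The log2 change was 1.10 (SE 0.23, adjusted p = 0.0482), close to the threshold. It did not pass without Slc1a3+ replicate 1 (adjusted p = 0.105), Slc1a3+ replicate 4 (adjusted p = 0.0633), total replicate 1 (adjusted p = 0.104), total replicate 4 (0.77, adjusted p = 0.0619) or pairing (adjusted p = 0.759). Klk10, a protease on the same list, measured 1.52 and did not pass (adjusted p = 0.104).

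Ndufa4l2, a mitochondrial protein induced by low oxygen, had 364, 193 and 350 CPM in Slc1a3+ replicates 1, 2 and 4, against 168, 172 and 166 CPM in the totals. The totals were nearly level, and the log2 change was 0.79 (SE 0.14, adjusted p = 0.015). It did not pass without Slc1a3+ replicate 1 (0.61, adjusted p = 0.0923), total replicate 1 (0.61, adjusted p = 0.0926) or pairing (adjusted p = 0.17). Exons of Shmt2 overlap it on the other strand, and Shmt2 measured -0.20 (adjusted p = 0.471). Dmpk, a serine and threonine kinase, had 32.2, 51.0 and 43.7 CPM in Slc1a3+ cells, against 22.1, 31.0 and 25.5 CPM in the totals, and rose by 0.67 (SE 0.10, adjusted p = 0.00456).

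Tmem246, an enzyme that modifies GPI anchors, had 39.3, 24.1 and 34.3 CPM in Slc1a3+ replicates 1, 2 and 4, against 19.1, 18.2 and 20.1 CPM in the totals. It rose by 0.74 (adjusted p = 0.0192) with separated libraries, and did not pass without Slc1a3+ replicate 1 (adjusted p = 0.109) or total replicate 1 (adjusted p = 0.108). Foxq1, a transcription factor of the hair shaft, had 97.5, 95.6 and 77.0 CPM in Slc1a3+ cells, against 65.3, 66.8 and 18.1 CPM in the totals. Its change of 0.98 (adjusted p = 0.0436) was 0.55 (adjusted p = 0.0125) without total replicate 4, the lowest library. Endou, an endoribonuclease, averaged 7.12 ± 2.03 CPM in Slc1a3+ cells and 3.40 ± 0.727 CPM in total IFE (SD, n = 3 each), and its change of 1.08 (adjusted p = 0.0413) was lost without Slc1a3+ or total replicate 2 (0.72, adjusted p = 0.142 both times). Without pairing Dmpk (adjusted p = 0.587), Foxq1 (adjusted p = 0.837) and Endou (adjusted p = 0.62) did not pass.

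Some of the higher genes rested on few counts or on 1 pair. Mettl7a3, named after its values were seen, had 0.400, 4.48 and 0.324 CPM in Slc1a3+ replicates 1, 2 and 4. Its totals had 0.103, 1.54 and 0 CPM, a log2 change of 1.63 (SE 0.30, adjusted p = 0.0238). Replicate 2 held most of it on both sides. The Mettl7a3 call was lost in 2 of the fits with 1 library left out and without pairing (adjusted p = 0.87). Krt84, a hard keratin of hair and nail, had 0.343, 54.0 and 0.162 CPM in Slc1a3+ replicates 1, 2 and 4, against 0.275, 2.82 and 0.128 CPM in the totals. Replicate 2 held nearly all of it on both sides, and the log2 change of 3.83 (SE 0.68, adjusted p = 0.0413) became 0.32 (adjusted p = 0.942) without Slc1a3+ or total replicate 2. It also failed to pass without Slc1a3+ replicate 4 (adjusted p = 0.0625), total replicate 4 (adjusted p = 0.0619) or pairing (adjusted p = 0.837). Elovl3, an elongase of fatty acids in sebaceous glands, was the 1 gene of 28 that passed on the lipid list. It had 29, 11 and 0 counts in Slc1a3+ replicates 1, 2 and 4, against 3, 3 and 0 counts in the totals. Its call (3.14, adjusted p = 0.0399) was lost without Slc1a3+ or total replicate 1 (1.93, adjusted p = 0.288 both times) or without pairing (adjusted p = 0.576). Mettl7a3, Krt84 and Elovl3 were far higher in tail skin. They averaged 530, 2468 and 33.0 CPM in tail Slc1a3+ cells and 411, 2035 and 30.7 CPM in their total. In back Slc1a3+ cells the means were 1.73, 18.2 and 0.723 CPM. The low-count filter took in all 28 libraries, tail skin among them.

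On the lists of IFE programs 0 genes passed, and their signs leaned opposite ways, with 17 of 22 basal genes negative and 24 of 30 spinous and granular genes positive, where 43.2% of all genes were negative. None of the 22 basal genes passed in edgeR, where 1 higher and 5 lower stood below 0.05 before adjustment. The list median was -0.17, or -0.09 without total replicate 4. Of the 30 spinous and granular genes 0 passed and 6, all higher, stood below 0.05 before adjustment, with a median of 0.20, or 0.14 without total replicate 4. Igfbp3, an insulin-like growth factor binding protein of basal cells, averaged 1630 ± 209 CPM in Slc1a3+ cells and 1160 ± 210 CPM in total IFE (SD, n = 3 each). Its libraries were separated but it did not pass (log2 0.50, SE 0.12, adjusted p = 0.137).

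Cell cycle genes lay level. The 30 mitosis and G2 genes were negative for 15 and positive for 15, and 0 passed, with 4 at an unadjusted p under 0.05. Aspm, a spindle pole protein of dividing cells, had 16.2, 26 and 25.2 CPM in Slc1a3+ replicates 1, 2 and 4, against 17.0, 25.3 and 19.5 CPM in the totals, and the groups overlapped. The 28 replication genes had 14 negative and 14 positive members and 0 passed, with 5 at an unadjusted p under 0.05. Dlx1, the homeobox gene of another line, had 1 to 12 counts in the Slc1a3+ libraries and 3 to 23 in the totals.

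On the lists of Notch signalling, immediate early and heat shock genes, interferon response, cytosolic ribosome, nuclear oxidative phosphorylation, Slc1 transporters and retinoid handling, 0 members passed in edgeR, 0 to 5 a list stood below 0.05 before adjustment, and the medians ran from -0.02 to 0.09. The mitochondrial genome list, with 8 members tested, had a median of 0.94 with 0 passing. Without total replicate 4 this median was -0.04.

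**Figure D3:**
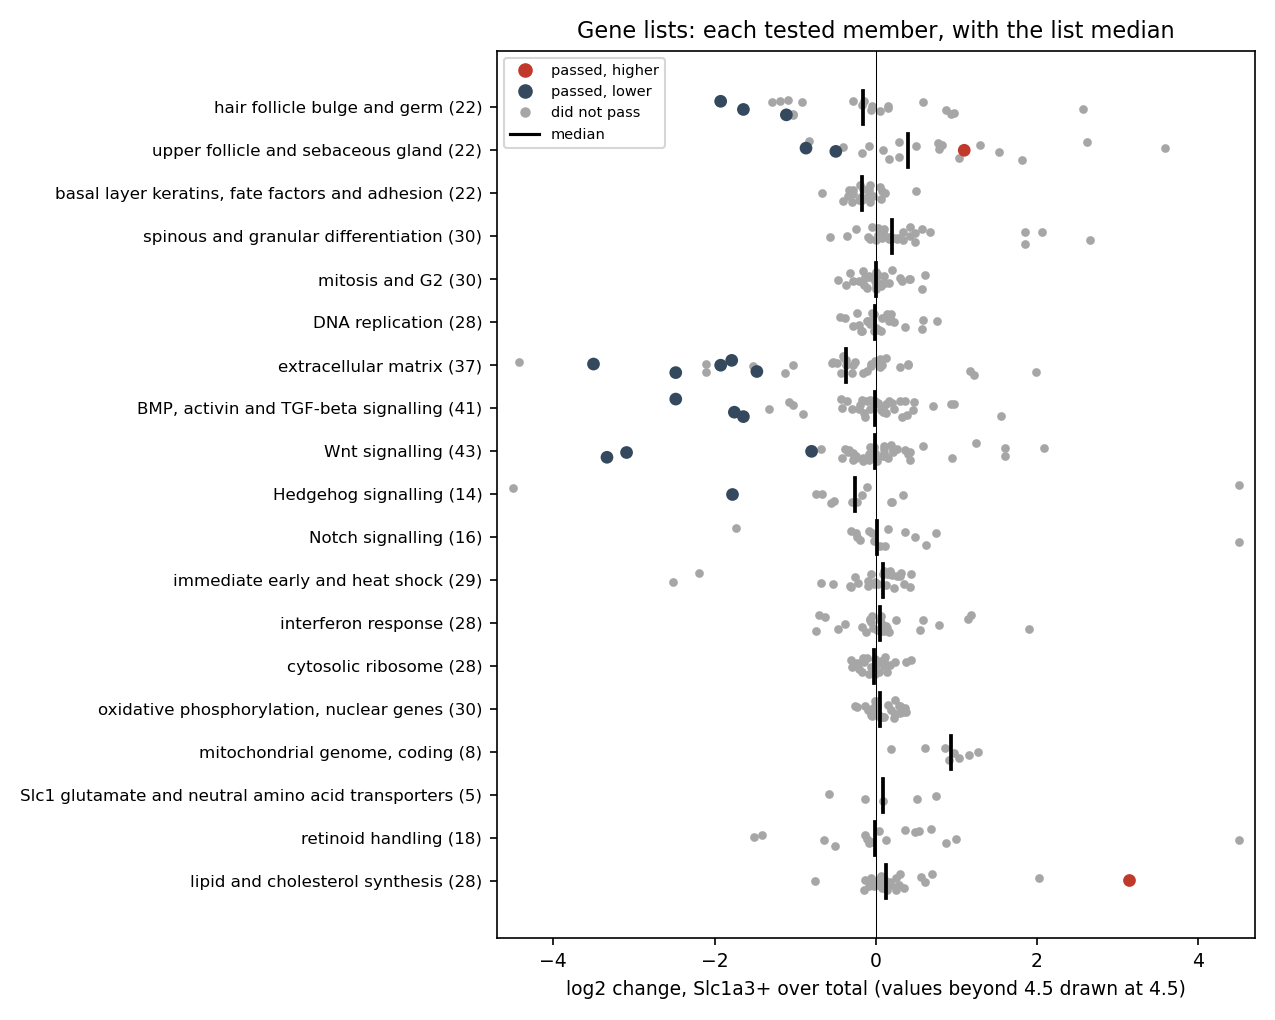
Each point is a tested member of a gene list, at its log2 change of Slc1a3+ over total, with the number tested beside the list's name and the median as a vertical bar. The list members that passed lower lie on the matrix, BMP, Wnt, Hedgehog and follicle lists, and most lists centre near 0. Genes that passed lower but are on no list, such as Aqp3 and Pdlim4, are not drawn.

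Markers of other cells were present at low and uneven levels. The 12 Langerhans cell markers summed to 267, 86.5 and 66.9 CPM in Slc1a3+ replicates 1, 2 and 4, against 138, 81.3 and 23.6 CPM in the totals, with 0 of 12 passing. Cd207, the defining marker, was at 0.559 to 2.63 CPM in Slc1a3+ cells and at 0 to 1.85 CPM in total IFE. The 12 epidermal T cell markers summed to 114, 39.2 and 27.9 CPM in Slc1a3+ cells, against 35.8, 36.4 and 31.5 CPM in the totals, with 0 of 9 passing. Of the first of these sums 111 CPM were Thy1. The 8 erythrocyte markers summed to 16.9, 0.326 and 3.65 CPM in Slc1a3+ cells and to 0.172, 0.256 and 2.68 CPM in the totals. Slc1a3+ replicate 1 was thus the highest library for each of the 3 lists.

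The 12 melanocyte markers summed to 23.2 to 42.6 CPM in Slc1a3+ cells and 16.3 to 37.9 CPM in the totals. Of the 10 tested, 7 were positive and 3 negative, with a median of 0.84, or 0.86 without total replicate 4. Dct, 1 of these markers, had 7.37, 3.36 and 0.405 CPM in Slc1a3+ replicates 1, 2 and 4, against 2.09, 0.855 and 0 CPM in the totals. The 12 fibroblast markers summed to 11.8 to 12.5 CPM in Slc1a3+ cells and 13.7 to 17.9 CPM in the totals. Sums of the endothelium and mural, adipocyte, Merkel cell and muscle lists were below 9 CPM in all 6 libraries, and Adipoq and Krt20 were at 0 in each. None of these lists had a member that passed. The part of these markers in the results was not tested.

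The genes that fell had long transcripts. Their longest annotated transcript had a median of 4532 bases, and 23 of the 51 (45.1%) exceeded 5000 bases, whereas the median was 3356 bases, with 22.5% over 5000, for all protein-coding genes tested. The 11 higher genes had a median of 2408 bases and 0 over 5000. Across protein-coding genes at 5 CPM or more, the median log2 difference ran from 0.11 for transcripts of up to 1000 bases to -0.08 for those over 8000 bases. In pair 1 it ran from 0.35 to -0.35 and in pair 4, in the same direction, from 0.19 to 0.04. In pair 2 it ran the other way, from -0.22 to 0.09. Without Slc1a3+ or total replicate 1, 84 and 82 genes passed, 47 and 46 of them among the 62. The part of transcript length in the calls was not tested.

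**Figure D4:**
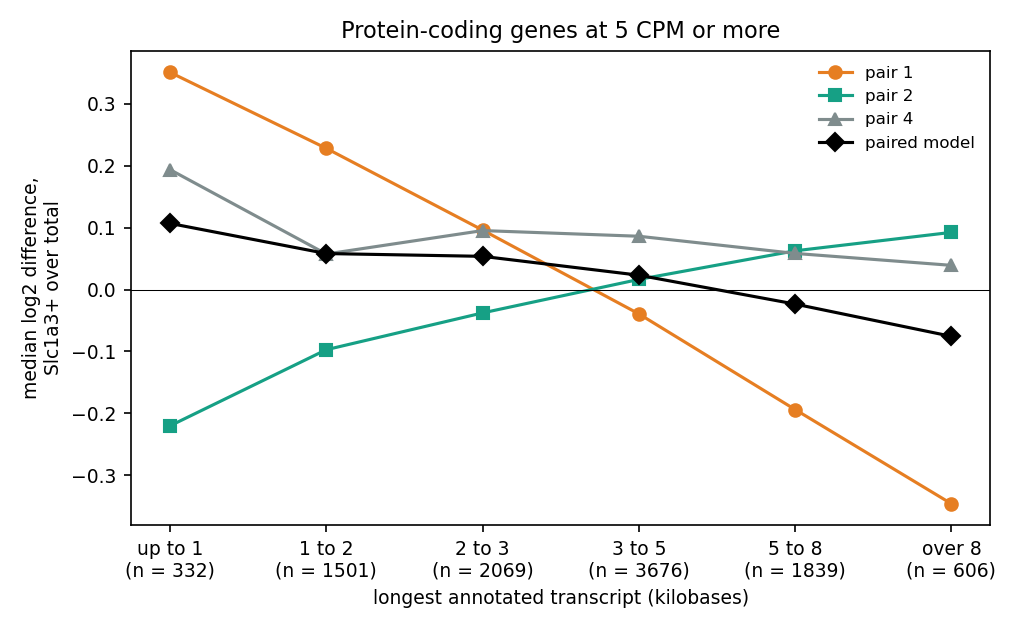
Median log2 difference of Slc1a3+ over total for protein-coding genes at 5 CPM or more, in bins of longest annotated transcript, for the paired model and for each of the 3 pairs. Pair 1 falls from 0.35 to -0.35 with length, pair 2 rises from -0.22 to 0.09, and the model lies within 0.11 of 0.

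The same genes were read in other labelled cells, whose own totals share no library with these. All these effects share 1 estimate of each gene's spread, so their calls are not independent. The other back lines were Aspm+ cells (3 libraries, with 3 of their total) and K14+ cells (2 and 2), marked through the basal keratin 14, and tail skin gave Slc1a3+ cells (2 and 2). Each carries its own CreER with the same reporter, treatment and age. Of the 51 genes lower in back Slc1a3+ cells, 50 were negative in back K14+ cells against their total, and 14 of them (27.5%) passed lower, which is 77.8% of the 18 genes (0.103% of those tested) that passed in K14+ cells. Their median was -0.77, and 49.9% of all genes were negative. In back Aspm+ cells 47 of the 51 were negative, with a median of -0.34 and 0 passing. There 0 of all genes passed in edgeR, and 670 stood below 0.05 before adjustment. In tail Slc1a3+ cells 50 were negative and 35 (68.6%) passed lower, 14.8% of the 237 genes (1.35%) that did so there, out of 261 (1.49%) in both directions, with a median of -1.35. The 11 higher genes were spread over both signs in back Aspm+ cells (6 positive) and K14+ cells (7 positive), and 10 were positive in tail Slc1a3+ cells, where 1 passed.

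**Figure D5:**
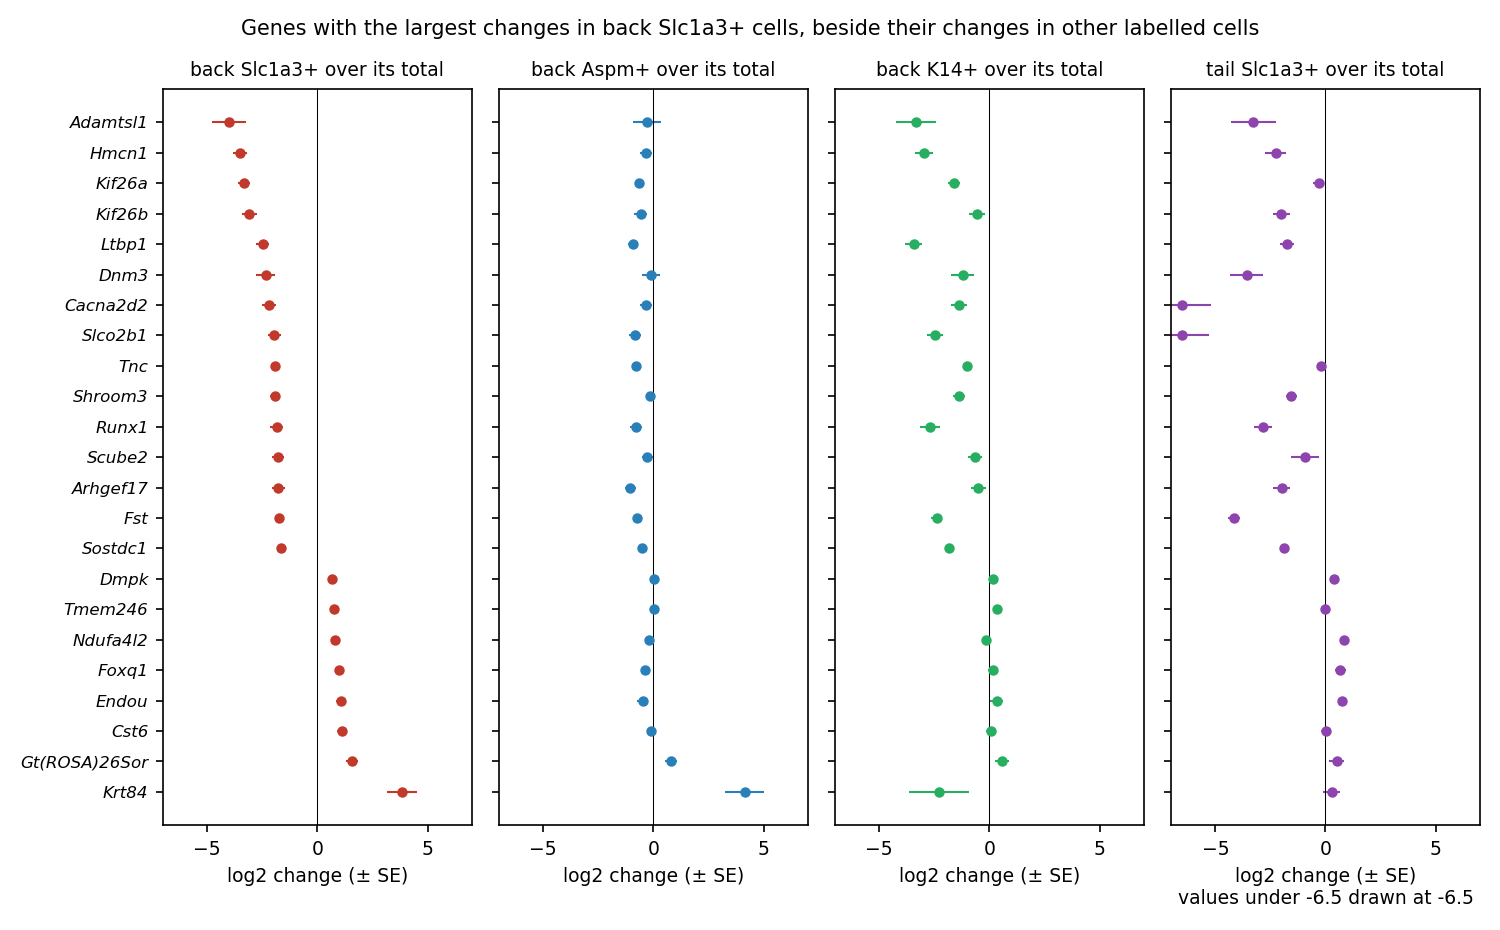
Log2 changes (points) with SE (bars) of the 23 genes with the largest changes in back Slc1a3+ cells over their total, beside the same genes in back Aspm+, back K14+ and tail Slc1a3+ cells over their own totals. The genes that fell in back Slc1a3+ cells lie at or below 0 in the other 3 panels. Cacna2d2 and Slco2b1, at the left edge of the tail panel, had 0 counts in tail Slc1a3+ cells.

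The difference between effects was tested in the same model. Against back Aspm+ cells 6 genes differed (0.0343% of those tested), 2 with the higher value in Slc1a3+ cells (0.0114%) and 4 with the lower (0.0229%), the 4 being among the genes that fell in back Slc1a3+ cells. Kif26a measured -3.33 in back Slc1a3+ cells and -0.63 in back Aspm+ cells, a difference of -2.70 (SE 0.34, adjusted p = 0.00787). Hmcn1 differed by -3.17 (SE 0.41, adjusted p = 0.00787), Shroom3 by -1.78 (SE 0.29, adjusted p = 0.0474) and Aqp3 by -1.09 (SE 0.16, adjusted p = 0.0322). Hmcn1 had 14.4, 19.9 and 11.6 CPM in Aspm+ cells, against 13.8, 25.4 and 18.8 CPM in their total, so the Aspm+ libraries overlapped their total. Igfbp3 went the other way, at 0.50 in Slc1a3+ cells and -0.56 in Aspm+ cells, a difference of 1.05 (SE 0.17, adjusted p = 0.0474). The sixth, Gm8210, a processed pseudogene named after its values were seen, shares sequence with its parent gene and is uncertain. It had 5.31, 5.78 and 7.78 CPM in Slc1a3+ replicates 1, 2 and 4, against 0.206, 0 and 1.66 CPM in the totals. Its change was 4.10 (SE 0.52, adjusted p = 0.000763, or 0.863 without pairing). Aspm+ replicates 1, 2 and 4 had 13.7, 13.9 and 0.0509 CPM, against 16.6, 12.7 and 0 CPM in their total. The reason for these patterns was not tested. Without pairing 0 genes differed in edgeR, where 565 stood below 0.05 before adjustment, and DESeq2 with pairing gave 39. The Shroom3 difference was lost without Slc1a3+ or total replicate 1 (adjusted p = 0.0944 both times), Slc1a3+ replicate 2 (adjusted p = 0.077) or total replicate 2 (adjusted p = 0.0837). That of Igfbp3 was lost without Slc1a3+ replicate 2 (adjusted p = 0.0705) or total replicate 2 (adjusted p = 0.0721).

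Against back K14+ cells 0 genes differed in edgeR, where 671 stood below 0.05 before adjustment, and DESeq2 gave 4. Sostdc1 measured -1.64 in back Slc1a3+ cells and -1.82 in back K14+ cells, Ltbp1 -2.48 and -3.44, Fst -1.75 and -2.40, and Hmcn1 -3.50 and -2.97. These 4 passed in both. Kif26b measured -3.09 in Slc1a3+ cells and -0.56 in K14+ cells, and this difference of -2.53 (SE 0.51) did not pass (adjusted p = 0.718).

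Against tail Slc1a3+ cells 83 genes differed (0.474%), 77 of them with the higher value in back (0.440%). Of the 83, 77 had passed in tail skin, and 10 were among the 51 genes lower in back. Kif26a, Tnc and Aqp3 fell in back and did not pass in tail. Aqp3 had 1870 and 1605 CPM in tail Slc1a3+ cells, against 1760 and 1490 CPM in their total, and its difference between sites was -1.47 (SE 0.18, adjusted p = 0.000654). Tnc had 65.9 and 91.9 CPM in tail Slc1a3+ cells, against 78.3 and 100 CPM in their total, with a difference of -1.74 (SE 0.23, adjusted p = 0.000909). For Kif26a the difference was -3.02 (SE 0.36, adjusted p = 0.00048). Of these 3, only Aqp3 also passed without pairing, where Kif26a had an adjusted p = 0.252 and Tnc an adjusted p = 0.262.

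Other genes fell in tail and did not pass in back. Rasgrp1, an activator of Ras, had 101, 132 and 111 CPM in back Slc1a3+ replicates 1, 2 and 4, against 114, 119 and 148 CPM in the totals. In tail it had 0.349 and 0.178 CPM in Slc1a3+ cells, against 6.47 and 5.27 CPM in their total, and the difference between sites was 4.31 (SE 0.44, adjusted p = 8.47e-05). Dach1, a transcriptional regulator, averaged 39.6 ± 5.75 CPM in back Slc1a3+ cells and 32.7 ± 9.40 CPM in their total (SD, n = 3 each), and 0 and 0.237 CPM in tail Slc1a3+ cells, against 1.17 and 1.73 CPM in their total. Its difference was 3.87 (SE 0.60, adjusted p = 0.00429). Both lie far lower in tail than in back in the labelled cells and in the totals alike.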

How the data were processed

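RNA of labelled cells and of total IFE was sequenced from poly(A) libraries made with a low-input, non-directional kit, per the labels' protocols. The deposited values are whole-number counts per gene, 1 file per library, not normalized. Per the submitters' processing notes the tools were Trim Galore 0.6.0, cutadapt, FastQC, STAR 2.7.0e and DESeq2 1.26.0, with GRCm38/mm10. The counting program, annotation and strand setting are not given in the sources used here. All 55536 gene IDs matched GENCODE M21, 118 symbols were shared by several IDs, and 0 rows named no gene.

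Counts of all 28 libraries were fitted together in edgeR 4.0.16 (R 4.3.3) with TMM scaling, filterByExpr at a minimum count of 10 (17493 genes tested), the quasi-likelihood test and Benjamini-Hochberg adjustment over all genes tested. Adjusted p-values in the text come from this edgeR model unless another tool is named. The model held 1 term for each line, site and replicate number (replicate block), with 8 residual degrees of freedom. The pairing comes from the replicate numbers, and the labels do not say what a number stands for. Deviations from the group means of same-numbered libraries correlated at r = 0.18, 0.212 and 0.216 over 10376 genes. These were weak, and lower than the r of 0.321 to 0.689 for the pairs of the other lines and sites. Differences between effects were terms of the same model. The scripts were tested on simulated data.

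The 15 largest changes each way were named (8 were eligible higher), predicted genes left out. These had an adjusted p under 0.05, the same direction in all 3 pairs and at least 5 CPM on average in the higher group. Also named were up to 4 genes per gene list by p, which needed only an adjusted p under 0.05. Up to 6 genes each way per difference were added, which had to pass for the difference, with at least 5 CPM in a compared group. The marker genes of the lines were named whether or not they passed. In all 43 genes were named. The comparison and the gene lists were chosen with earlier results of these data known. Alternatives were no pairing, DESeq2 1.42.0, limma-voom 3.58.1, other scalings and filters, fewer libraries in the fit, and each of the 6 libraries left out. Depth was 7738262 to 28281208 counts a library in the compared groups, and thinning to 7738262 counts was used to compare numbers of genes. Promoters came from RefSeq. The reporter's own transcript was not analysed here.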

Additional observations from a re-analysis of the deposited data

Results flagged for a closer look

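These results are listed because the Slc1a3+ effect in back skin differed from the effect in another line or site by a test of the difference itself (edgeR's quasi-likelihood test, Benjamini-Hochberg adjusted p under 0.05). Against back Aspm+ cells the log2 difference was -2.70 for Kif26a, -3.17 for Hmcn1, -1.78 for Shroom3, -1.09 for Aqp3 and 1.05 for Igfbp3. Without pairing none of these 5 passed.

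Against tail Slc1a3+ cells the difference was -3.02 for Kif26a, -1.74 for Tnc, -1.47 for Aqp3 and -0.90 for Pdlim4. It was -1.70 for Map2, a microtubule protein, and -1.49 for Disp1, which releases Hedgehog ligands, and neither passed in back or in tail alone. It was 4.31 for Rasgrp1, 3.87 for Dach1 and 3.94 for Bmpr1b, a BMP receptor. Of these 9, Aqp3, Rasgrp1 and Dach1 also passed without pairing. The differences of Map2 and Disp1 were lost without either library of pair 1 or of pair 2, and that of Pdlim4 without either library of pair 2.

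Aldh1a1, a retinaldehyde dehydrogenase, Lpar1, a receptor for lysophosphatidic acid, and Pyy, a peptide hormone, had fitted differences of 7.61, 8.06 and 6.91. These are no measure of size, because both tail Slc1a3+ libraries were at 0 for each gene and the fitted value depends on the prior count. Without pairing none of the 3 passed (adjusted p = 0.19 for Aldh1a1, 0.111 for Lpar1 and 1 for Pyy), and Lpar1 did not pass without either library of pair 1 or of pair 2 (adjusted p = 0.0516 to 0.069). Their tail totals held 1.10 and 0.472 CPM of Aldh1a1, 3.17 and 0.747 CPM of Lpar1 and 0.895 and 0.393 CPM of Pyy. In back skin Pyy had 59.6, 36 and 16.1 CPM in Slc1a3+ replicates 1, 2 and 4, against 53.8, 31.9 and 17.6 CPM in the totals.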

How the results depend on the processing

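The 62 genes that passed became 19 with no replicate block (no pairing), 15 with no pairing and without total replicate 4, 21 with back skin libraries only, 152 with DESeq2, 429 (284 higher, 145 lower) with no low-count filter, 0 with the compared groups only, where 2 residual degrees of freedom were left, and 82 to 153 with 1 library left out. The 6 differences from back Aspm+ cells became 0 with no pairing, with or without total replicate 4, 1 with back libraries only, 3 with library totals, 39 with DESeq2, 125 with no filter, 1 with the compared groups only and 8 to 16 with 1 library left out. The 83 differences from tail became 16 with no pairing, 20 when total replicate 4 was also left out, 157 with DESeq2, 34 with limma-voom, 291 with no filter, 7 with the compared groups only and 88 to 135 with 1 library left out. The 0 differences from K14+ cells became 4 with DESeq2, 41 with no filter and 1 to 5 with 1 library left out. The cause was not tested.

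Of the 43 named genes, none that passed reversed under these alternatives. Of those that did not pass, with no pairing and without total replicate 4, Krt14 was 0.15, Bmpr1b -0.16, Lpar1 0.11, Pyy -0.20 and Dlx1 1.60. Dlx1 was 0.31 with back libraries only, 0.43 with DESeq2 and 0.31 with the compared groups only. With 1 library left out, Krt14 ran from -0.48 to 0.0733, Lpar1 from -0.92 to 0.0593, Aspm from -0.0115 to 0.19 and Dlx1 from -1.14 to 2.01. Total replicate 4 had the lowest depth of the 28 libraries. Without pairing 17 of the 62 calls were kept.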

Other observations

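Other genes that passed lower, named after their values were seen, included transcription factors. Ehf, an ETS factor of epithelia, had 6.45, 13.8 and 7.46 CPM in Slc1a3+ replicates 1, 2 and 4, against 20.5, 24.5 and 27.4 CPM in the totals, a log2 change of -1.43 (SE 0.22, adjusted p = 0.00688). Sox7, an HMG-box factor, had 6.68, 7.04 and 9.24 CPM in Slc1a3+ cells, against 15.4, 16.7 and 15.3 CPM in the totals (-1.07, adjusted p = 0.00568). Both were fully separated. Hoxb9, a homeobox gene of body position, had 0.913, 1.4 and 0.649 CPM in Slc1a3+ cells, against 2.95, 4.79 and 6.90 CPM in the totals (-2.17, adjusted p = 0.00732), and did not pass without pairing (adjusted p = 0.315).

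Among surface and secreted proteins, Lgals9, a galectin, had 23.6, 27.1 and 23.8 CPM in Slc1a3+ replicates 1, 2 and 4, against 52.3, 45.3 and 61.0 CPM in the totals (-1.07, adjusted p = 0.000227). Cspg4, a chondroitin sulfate proteoglycan, had 31.0, 51.8 and 50.3 CPM in Slc1a3+ cells, against 60.6, 68.4 and 87.7 CPM in the totals (-0.72, adjusted p = 0.00688). The libraries of both genes were separated, and neither passed without pairing (adjusted p = 0.191 for Lgals9 and adjusted p = 0.573 for Cspg4).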
